A study of Mus musculus with 24 samples.

Results

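High endothelial venules (HEVs) and fibroblastic reticular cells (FRCs) sorted from the Peyer's patches of unperturbed mice were compared across all genes, using the 4 libraries labelled control HEV and the 7 labelled control FRC, 11 of the 24 libraries in the series. The other 13 libraries, 6 HEV and 7 FRC, came from mice given polyethylene glycol (PEG) at 10% (w/v) in their drinking water for 3 days, in a study of how fluid flow affects stromal cells of the Peyer's patch, and enter only where named. The control mice are described as unperturbed and received no agent. Each library was made from the polyadenylated RNA of 1000 cells of one mouse, lysed directly after the sort and amplified by template switching. The labels give no strain, age, sex or genotype, do not name the surface markers of the sort, and do not say which HEV and FRC libraries share a mouse. Libraries are called here by the number in their label: 8, 9, 17 and 24 for HEV, and 4, 5, 6, 12, 13, 20 and 21 for FRC. Because each library is a bulk sample, fewer cells of a type and less RNA per cell cannot be told apart.

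HEVs are specialised postcapillary venules of lymph nodes and Peyer's patches. Their tall endothelial cells carry sulfated and fucosylated mucins that capture lymphocytes from the blood through L-selectin, and in mucosal tissue they display MAdCAM-1, the ligand of the gut-homing integrin α4β7. FRCs are fibroblasts that build the collagen scaffold of the same tissue and secrete chemokines, survival factors and matrix. They derive from a different lineage, so the comparison sets an endothelial against a mesenchymal program within one organ.

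The FRC libraries held 12416032 to 18052362 reads in genes and the HEV libraries 14392146 to 17160900. At least 1 read was found for 17095 to 19920 genes per FRC library and for 16631 to 17915 per HEV library, and mitochondrial transcripts took 1.02% to 1.30% and 1.02% to 1.25% of reads. The first principal component, 47.2% of the variance, placed all 4 HEV libraries (189 to 223) apart from all 7 FRC libraries (-122 to -98.5). The second, 12.0%, separated libraries 1 to 9 (51.4 to 109) from libraries 10 to 24 (-90.4 to -35.7) in both cell types. The sequencing pools inferred from index pairs, used below as covariate, do not follow this split. HEV library 9 shares pool 2 with FRC libraries 12 and 13, so within that pool the cell types cannot be told apart from the split. HEV library 9 had the highest fibroblast sum of the HEV libraries. Its summed level over 22 pan-fibroblast genes was 832 CPM (the reads of a gene scaled to the library's total reads in genes), 1.81% of the FRC median, against 82.6 to 120 in the other 3 HEV libraries. The source of these fibroblast reads was not tested. FRC library 20 had the highest endothelial sum, with 996 CPM over 30 pan-endothelial genes, 5.12% of the HEV median, and the other FRC libraries had 2.65% to 4.06%. These percentages cannot be read as shares of endothelial RNA. The sum includes genes that every FRC library held, such as Plvap at 39.9 to 119 CPM, and the source of those reads was not tested. The venule gene Lrg1 had an FRC median of 5.10 CPM against an HEV mean of 7654. Intestinal epithelial markers summed to 19.9 to 8750 CPM in HEV (highest in library 24) and 98.1 to 2984 CPM in FRC (highest in library 20), and none of the 20 tested passed the test.

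Of 15743 genes tested, 1636 were higher and 2233 lower in HEV than in FRC at an adjusted p under 0.05 (edgeR quasi-likelihood F test with the sequencing pool as covariate and Benjamini-Hochberg adjustment over all genes tested). That is 24.6% of genes tested, 10.4% higher and 14.2% lower, and these shares are the background for every count of list members given here. A call is that threshold throughout, and log2 fold changes are HEV minus FRC with a standard error derived from the F statistic. By fitted fold change, 936 genes were called more than 4-fold higher and 1760 more than 4-fold lower, and 190 and 808 passed 128-fold. Of the genes tested, 356 had no read in 1 of the groups, and their fitted folds were not replaced by bounds in these counts. A gene can pass the count filter on the libraries of 1 group alone and then shows a large fold. Counts of list members therefore describe the lists and do not test them. The median gene differed by -0.16 on the log2 scale. All 4 HEV libraries lay above all 7 FRC libraries in CPM for 1271 genes (8.07%) and below them for 1781 (11.3%). Of the 3869 called genes, 2783 did not overlap between the groups, and 2386 were called in each of the 11 fits that left out a library. HEV 8 was the only HEV library of pool 1 and HEV 9 the only one of pool 2. A fit without either has no contrast of the cell types within that pool, so that pool's FRC libraries no longer enter the fold change. A call lost without HEV 8 or HEV 9 therefore does not rest on that library alone. The median 95% confidence interval of a gene's log2 fold change, not adjusted for the number of genes, reached 1.61 to either side. Differences of about that size could therefore be missed in a gene of typical spread. Smaller ones were called in genes of less spread, such as Junb (0.67 ± 0.12) and B2m (0.86 ± 0.14).

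**Figure D1:**
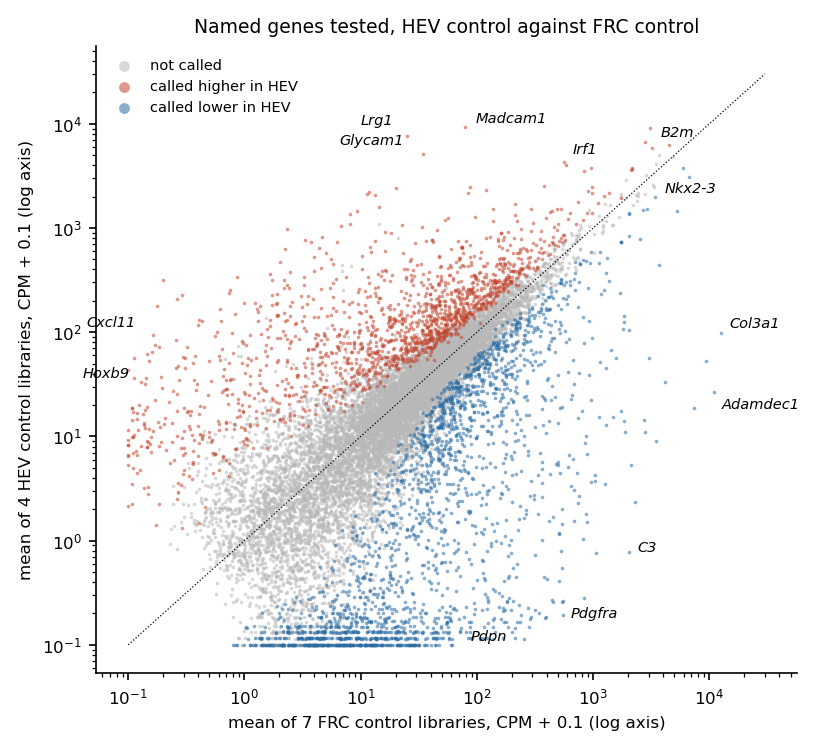
Mean level of each tested gene with a symbol in the 7 FRC control libraries (x axis) and the 4 HEV control libraries (y axis), in CPM plus 0.1 on log axes; red points were called higher in HEV, blue points lower, and grey points were not called. Many genes called higher in HEV lie near 0 on the FRC axis, and many called lower lie near 0 on the HEV axis. Irf1, called higher, lies well above 0 on both axes, and Nkx2-3 and B2m are high in both cell types.

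The 5 marker genes used to check the labels did not overlap between the HEV and FRC libraries. HEV values are given in the order of libraries 8, 9, 17 and 24. Madcam1 (Entrez Gene 17123), the mucosal addressin, was at 11371, 7639, 10966 and 7495 CPM in HEV and ranged from 12.8 to 158 CPM, with a median of 74.8, in FRC. Glycam1 (14663), a secreted sialomucin of HEVs, was at 4295, 3332, 4592 and 8510.2 CPM in HEV and from 2.58 to 177 CPM, with a median of 11.4, in FRC. Both were lower in every FRC library than in any HEV library, and the FRC maximum of Glycam1 came from library 20. Pecam1 (18613), the pan-endothelial adhesion molecule CD31, was at 1127, 1764, 451 and 599.9 CPM in HEV and from 0.0588 to 9.70 CPM, with a median of 0.942, in FRC. Pdgfra (18595), the PDGF receptor of fibroblasts, was at 0.253, 0.0583, 0.136 and 0.208 CPM in HEV, 10 reads in all, and from 425 to 676 CPM, with a median of 551, in FRC. Pdpn (14726), podoplanin, was at 0.127, 0, 0.0682 and 0.0695 CPM in HEV, 4 reads in all, and from 203 to 239 CPM, with a median of 221, in FRC. The near absence of Pdpn from the HEV libraries also bears on lymphatic endothelium, which carries it: of 13 lymphatic markers 8 were tested, 2 were higher (Lyve1 and Flt4) and 1 lower (Pdpn itself), and Prox1, the defining transcription factor of lymphatic cells, was at 5.94 ± 5.18 against 0.558 ± 0.822 CPM and was not called (adjusted p = 0.094, and 0.011 with DESeq2). In this and later pairs of values the first is the HEV mean ± SD (n = 4) and the second the FRC mean ± SD (n = 7). Flt4 was no longer called without HEV 8 or HEV 9 (adjusted p of up to 0.13). Lyve1 was no longer called without HEV 9 (adjusted p = 0.096).

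**Figure D2:**
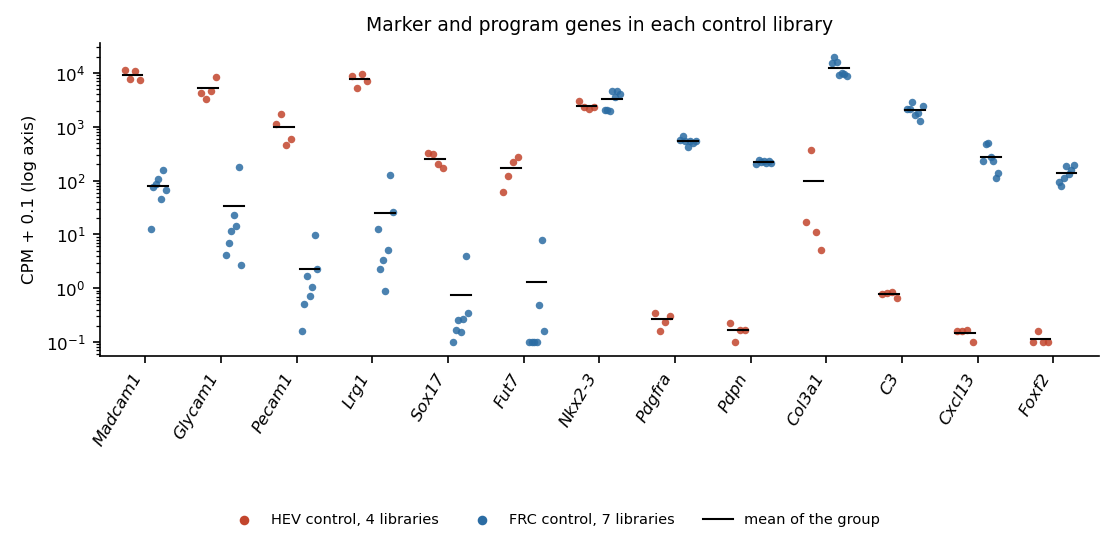
Level of 13 genes in each control library, in CPM plus 0.1 on a log axis; each point is 1 library and each bar the group mean, with HEV in red and FRC in blue. The endothelial genes sit high in the 4 HEV libraries and the fibroblast genes in the 7 FRC libraries, FRC library 20 is the highest FRC point for Glycam1 and Lrg1, HEV library 9 is the highest HEV point for Col3a1, and Nkx2-3 overlaps.

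All 30 pan-endothelial genes were tested, all 30 were higher in HEV and all 30 had every HEV library above every FRC library, with a median log2 fold change of 6.94 beside -0.16 over all genes tested. The list was chosen with earlier results known, and members near 0 in FRC passed the filter through the HEV libraries. This count is therefore a description. Plvap, which forms the diaphragms of fenestrae and caveolae, was at 2478 ± 1018 against 86.2 ± 28.6 CPM (log2 fold change 5.00 ± 0.30, adjusted p = 3.50e-07). Ly6c1, a surface antigen of mouse endothelium, was at 959 ± 155 against 45.6 ± 22.9 CPM (log2 fold change 4.40 ± 0.30). Ramp2, the co-receptor for adrenomedullin, was at 530.1 ± 115 against 86.8 ± 29.3 CPM (log2 fold change 2.81 ± 0.22), and Kdr, the main VEGF receptor, at 165 ± 43.3 against 0.520 ± 1.08 CPM (log2 fold change 9.00 ± 0.96).

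Transcription factors of the endothelial lineage followed: of 21 tested, 19 were higher, none was lower and the median log2 fold change was 3.33. Sox17, Erg, Fli1, Tal1 and Gata2 all belong to the network that specifies endothelium and blood. Erg, an ETS factor that maintains endothelial identity, was at 243 ± 90.6 against 9.40 ± 5.18 CPM (log2 fold change 4.53 ± 0.41, adjusted p = 9.05e-06). Klf2, a factor induced by laminar flow, was at 346 ± 49.6 against 95.3 ± 9.88 CPM (log2 fold change 1.89 ± 0.18), so that FRC libraries were not devoid of it. Fli1 was at 121 ± 26.0 against 19.3 ± 4.79 CPM and Elk3, a repressor of the same ETS family, at 149 ± 32.9 against 15.5 ± 6.31 CPM (log2 fold changes 2.64 ± 0.27 and 3.33 ± 0.36). The 2 that did not pass were Klf4, at 199 ± 39.8 against 228 ± 36.3 CPM (adjusted p = 0.35), and Tcf4, at 185 ± 46.7 against 182 ± 38.5 CPM (adjusted p = 0.56), both present in the FRC libraries at the same order of size.

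Of 13 venous and postcapillary genes tested, 11 were higher and none lower (median log2 fold change 6.66), whereas of 15 arterial genes 2 were higher and 4 lower. Lrg1, a secreted glycoprotein of venules, was at 8729, 5284, 9631 and 6973 CPM in HEV and from 0.784 to 125 CPM, with a median of 5.10, in FRC (log2 fold change 9.40 ± 1.07, adjusted p = 0.00015). Every HEV library held more Lrg1 than any FRC library, the highest of which was library 20. Sele and Selp, the endothelial selectins that slow leukocytes along the vessel wall, were at 728 ± 240.2 against 6.10 ± 12.6 CPM and 1053 ± 234 against 6.65 ± 17.0 CPM. Nr2f2, the factor that sets venous identity, was at 273 ± 41.9 against 92.2 ± 34.9 CPM (log2 fold change 1.53 ± 0.22). Ackr1, the chemokine-binding receptor of venules also known as the Duffy antigen, was at 2069 ± 588 against 13.3 ± 23.1 CPM (log2 fold change 8.04 ± 1.27, adjusted p = 0.0013). The arterial genes that were higher in HEV were Dll4, a Notch ligand, at 152 ± 38.6 against 2.10 ± 2.16 CPM, and Sox17, at 253 ± 75.1 against 0.654 ± 1.43 CPM. Those that were lower, Mgp, Fbln5, Unc5b and Nrp1, are also fibroblast genes, and Mgp, an inhibitor of calcification, was at 33.1 ± 29.7 against 4126 ± 1862 CPM. Gja5 and Hey1, an arterial connexin and a Notch target, were at 1.68 ± 2.48 against 1.22 ± 2.32 CPM and 15.5 ± 1.43 against 11.1 ± 12.1 CPM and did not pass. Of 11 capillary genes 7 were higher and 1 was lower, the latter being Cxcl12, and Cd36 and Fabp4, which take up and bind fatty acids, were at 452 ± 76.6 against 5.68 ± 9.46 CPM and 294 ± 124 against 5.72 ± 8.85 CPM.

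Of 8 sialomucins and addressins tested 5 were higher, Madcam1, Cd34, Glycam1, Emcn and Podxl, and 2 were lower. Cd34 was the exception in size, at 718 ± 227 against 306 ± 69.1 CPM (log2 fold change 1.40 ± 0.17), since FRC libraries also carried it. Podxl2, endoglycan, was lower, at 2.09 ± 3.97 against 109 ± 29.7 CPM (log2 fold change -6.53 ± 1.25, adjusted p = 0.0027), and so was Parm1, at 1.57 ± 2.56 against 32.8 ± 19.4 CPM. Of 25 genes for selectin-ligand glycans and sulfate supply, 9 were higher, 1 was lower and 15 did not pass. Fut7, the fucosyltransferase that completes sialyl Lewis x, was at 62.5, 121, 217 and 271 CPM in HEV and from 0 to 7.90 CPM, with a median of 0, in FRC (log2 fold change 8.16 ± 1.20). The median FRC library had no Fut7 read, and library 20 supplied the FRC maximum. B3gnt3 and Gcnt1, which build the branches that carry the sulfated cap, were at 92.6 ± 63.1 against 0.454 ± 0.655 CPM and 93.7 ± 39.0 against 4.76 ± 6.05 CPM. Tyrosine sulfation was divided between its pair of enzymes: Tpst2 was higher in HEV, at 293 ± 35.8 against 39.6 ± 14.3 CPM (log2 fold change 2.86 ± 0.26), and Tpst1 lower, at 4.45 ± 3.34 against 175 ± 77.4 CPM (log2 fold change -5.19 ± 0.77). Sult1a1, a cytosolic phenol sulfotransferase, had the smallest p of the list, at 398 ± 82.9 against 28.2 ± 4.19 CPM (log2 fold change 3.85 ± 0.20, adjusted p = 1.04e-07). Chst2, which sulfates N-acetylglucosamine, was at 96.6 ± 46.4 against 67.6 ± 15.0 CPM and did not pass (adjusted p = 0.52), and B4galt1 was at 97.9 ± 47.0 against 95.2 ± 22.4 CPM (adjusted p = 0.96). Podxl was no longer called without HEV 8 (adjusted p = 0.052).

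Among 21 leukocyte adhesion genes tested, 13 were higher in HEV and 5 lower. Icam1, the ligand of the leukocyte integrin LFA-1, was at 2502 ± 446 against 379 ± 136 CPM (log2 fold change 2.96 ± 0.18, adjusted p = 2.91e-07), and Jam2, a junctional adhesion molecule, at 346 ± 52.3 against 45.4 ± 13.1 CPM (log2 fold change 2.92 ± 0.22). Vcam1, the other major integrin ligand of endothelium, was at 112 ± 53.5 against 217 ± 78.6 CPM, with a log2 fold change of -0.69 ± 0.25, and did not pass (adjusted p = 0.064). The 5 lower genes were Itgav, Cxcl16, Cd44, Alcam and Itgb3, and Cxcl16, a membrane-bound chemokine, was at 97.9 ± 54.5 against 515 ± 39.3 CPM (log2 fold change -2.35 ± 0.32). Vcam1 was called, in the same direction, without HEV 17 (adjusted p = 0.013).

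Receptors for lysophospholipids were divided between the cell types. Of 15 genes for sphingosine 1-phosphate and lysophosphatidic acid, 6 were higher in HEV and 4 lower. S1pr1, the sphingosine 1-phosphate receptor that holds endothelial junctions together, was at 359 ± 86.0 against 1.57 ± 1.42 CPM (log2 fold change 8.09 ± 0.93), whereas S1pr3 was at 0.254 ± 0.342 against 93.1 ± 45.4 CPM (log2 fold change -8.42 ± 0.91). Spns2, which exports sphingosine 1-phosphate from endothelial cells, was higher in HEV at 98.5 ± 7.99 against 4.71 ± 3.16 CPM. Enpp2, autotaxin, the secreted enzyme that makes lysophosphatidic acid, was at 1412, 1557, 984 and 1406 CPM in HEV and from 147 to 342 CPM, with a median of 179.8, in FRC (log2 fold change 2.90 ± 0.19, adjusted p = 5.09e-07). Its receptor gene Lpar1 ran the other way, at 0.127, 5.83, 0.273 and 0.6253 CPM in HEV and from 745 to 1083 CPM, with a median of 882, in FRC (log2 fold change -9.56 ± 0.96). The groups did not overlap for either gene, and HEV library 9, which had the highest HEV sum of pan-fibroblast genes, held the HEV maximum of Lpar1. Lpar6 and Lpar4, receptors for the same lipid, were instead higher in HEV, at 129.8 ± 28.9 against 19.8 ± 11.4 CPM and 14.2 ± 14.3 against 1.94 ± 1.53 CPM. Lpar4 was no longer called without FRC 4, FRC 5, FRC 6, HEV 8, HEV 9, FRC 12, FRC 13, FRC 20 or HEV 24 (adjusted p of up to 0.20).

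Genes of the interferon response were higher in HEV without any treatment of the mice. Of 21 interferon-induced GTPases tested, which attack the vacuoles of intracellular pathogens, 16 were higher and 1 lower, with a median log2 fold change of 1.82. Gbp4 was at 711, 519, 547 and 627 CPM in HEV and from 11.8 to 20.8 CPM, with a median of 15.0, in FRC (log2 fold change 5.26 ± 0.21, adjusted p = 1.74e-08). The HEV libraries lay within a narrow band for Gbp4, all above the FRC maximum. Iigp1 was at 1526 ± 269.6 against 138 ± 52.8 CPM (log2 fold change 3.54 ± 0.28), and Tgtp1 and Tgtp2, near-identical copies whose reads may be split between them, were at 485 ± 139 against 26.2 ± 6.75 CPM and 525 ± 148 against 46.7 ± 12.7 CPM. Gbp8 was lower, at 4.64 ± 5.67 against 26.2 ± 14.0 CPM (log2 fold change -3.01 ± 0.90, adjusted p = 0.029), and Gbp2 was at 400.1 ± 72.6 against 483 ± 169 CPM and was not called (adjusted p = 0.54). Of 24 type I interferon response genes 16 were higher (median 1.26), among them Parp14 at 263 ± 64.8 against 37.2 ± 10.5 CPM, Rtp4 at 433 ± 73.1 against 117 ± 21.8 CPM and Ifit1 at 441 ± 173 against 30.5 ± 16.4 CPM. Ifi27l2a, a mitochondrial interferon-response protein, was lower, at 124 ± 23.5 against 1841 ± 435 CPM (log2 fold change -3.84 ± 0.25, adjusted p = 5.44e-07). Gbp8 was no longer called without HEV 8, HEV 9, FRC 13, HEV 17 or FRC 20 (adjusted p of up to 0.097).

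The signalling genes upstream of this response gave a mixed count: of 19 tested 9 were higher and none lower. Irf1, a transcription factor that drives class I and GTPase genes, was at 4479, 4542, 4073 and 3996 CPM in HEV and from 451 to 849.9 CPM, with a median of 513, in FRC (log2 fold change 2.98 ± 0.17, adjusted p = 2.65e-07). No FRC library reached the lowest HEV library, and library 20 again supplied the FRC maximum. Socs3 and Jak1, a feedback inhibitor and a receptor kinase, were at 3532 ± 1517 against 838 ± 443 CPM and 447 ± 48.3 against 159 ± 58.5 CPM. The receptor chain Ifngr1 was at 621 ± 105 against 605 ± 146 CPM (log2 fold change 0.19 ± 0.20, adjusted p = 0.55) and did not pass. Of 23 genes for MHC class I and peptide loading 12 were higher and none lower (median 0.86), including H2-K1 at 9067 ± 2495 against 3113 ± 568 CPM (log2 fold change 1.51 ± 0.16) and the peptide transporter Tap1 at 243 ± 101.0 against 59.2 ± 24.8 CPM (log2 fold change 2.33 ± 0.23). The class I genes are close paralogs, so reads could be split between them. Of 9 MHC class II genes 5 were higher and none lower (3 to 5 with a library left out), with Cd74, the invariant chain, at 310.2 ± 169 against 73.3 ± 39.9 CPM and H2-Ab1 at 179.6 ± 84.6 against 43.4 ± 24.1 CPM, while Ciita, the class II regulator, was at 0.418 ± 0.633 against 2.35 ± 3.08 CPM and was not called (adjusted p = 0.46). B cell markers, a possible source of class II transcripts, summed to 16.1 to 41.7 CPM in HEV and 4.99 to 34.1 CPM in FRC, their part in the class II result was not tested, and none of the 4 tested was called.

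The upstream DNA of these genes is shown because interferon-response motifs were searched for there, over all list members with a window, called or not. Windows of 300 bases, 250 before and 50 after each annotated gene start, came from the RefSeq promoter table of build GRCm38.p6, which differs from the build named for the alignment. Windows were available for 11 of the 22 GTPase genes, 12 windows in all. The interferon-stimulated response element, searched as TTTC, any 2 bases and TTTC on both strands, was found in 10 of the 12 (83.3%), beside 3.44% of all 32851 windows of 27025 genes, 4.65% of windows of genes called higher and 1.93% of windows of genes called lower. The gamma-activated site, TTCNNNGAA, which reads alike on both strands, was found in 50% of the GTPase windows and 8.30% of all windows. For the type I interferon list the shares were 55% and 30% of 20 windows, and for the class I list they were 22.7% and 9.09% of 22 windows. ETS, GATA, forkhead and TEAD motifs were searched for as well. The ETS motif, CCGGAA, was in 5.56% of the 18 pan-endothelial windows and 19.4% of windows of genes called higher. It was in 24.8% of windows of all genes tested, and in 41.4% of the 29 windows of the NF-kappaB list described below. The GTPase genes are family members with similar upstream DNA, so their windows are not independent, and a match is a description of letters, not a binding site.

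The windows are written in the direction of transcription, with motif matches in capitals. Tgtp1 (chr11:48992197-48992496, minus strand) and Igtp (chr11:58199306-58199605, plus strand) carried the same pair, a gamma-activated site 88 and 45 bases before the gene start and, next to it, the response element GAAACTGAAA at 77 and 34 bases. Gbp5 (chr3:142496684-142496983, plus strand) carried 4 matches: gamma-activated sites at 245 and 52 bases before the start, a response element at 165 and an NF-kappaB site at 77. Irf1 (chr11:53769764-53770063, plus strand) carried a gamma-activated site at 90 bases, and Cxcl10 (chr5:92348840-92349139, minus strand) a response element at 213.
Tgtp1: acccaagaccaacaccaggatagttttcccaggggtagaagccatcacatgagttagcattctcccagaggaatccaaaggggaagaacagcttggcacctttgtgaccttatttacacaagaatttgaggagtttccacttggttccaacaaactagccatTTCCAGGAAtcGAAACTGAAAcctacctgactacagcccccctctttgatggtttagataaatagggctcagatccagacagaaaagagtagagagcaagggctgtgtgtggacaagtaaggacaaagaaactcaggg
Igtp: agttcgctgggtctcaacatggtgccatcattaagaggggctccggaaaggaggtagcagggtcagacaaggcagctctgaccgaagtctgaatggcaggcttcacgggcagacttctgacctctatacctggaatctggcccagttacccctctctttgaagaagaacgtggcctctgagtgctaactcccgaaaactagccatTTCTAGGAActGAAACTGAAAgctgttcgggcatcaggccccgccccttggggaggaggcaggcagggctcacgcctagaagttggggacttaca
Gbp5: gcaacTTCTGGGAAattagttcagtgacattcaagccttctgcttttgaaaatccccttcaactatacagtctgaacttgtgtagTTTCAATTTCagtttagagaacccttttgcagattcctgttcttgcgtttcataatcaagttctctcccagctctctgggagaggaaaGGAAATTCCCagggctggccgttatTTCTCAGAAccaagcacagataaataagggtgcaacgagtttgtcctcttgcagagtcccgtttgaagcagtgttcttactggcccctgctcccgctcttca
Irf1: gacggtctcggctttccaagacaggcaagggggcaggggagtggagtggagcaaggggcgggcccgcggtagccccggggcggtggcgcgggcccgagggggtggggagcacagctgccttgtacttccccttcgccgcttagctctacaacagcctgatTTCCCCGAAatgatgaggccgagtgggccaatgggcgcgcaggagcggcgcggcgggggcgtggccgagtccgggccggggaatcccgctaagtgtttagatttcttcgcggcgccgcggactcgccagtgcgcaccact
Cxcl10: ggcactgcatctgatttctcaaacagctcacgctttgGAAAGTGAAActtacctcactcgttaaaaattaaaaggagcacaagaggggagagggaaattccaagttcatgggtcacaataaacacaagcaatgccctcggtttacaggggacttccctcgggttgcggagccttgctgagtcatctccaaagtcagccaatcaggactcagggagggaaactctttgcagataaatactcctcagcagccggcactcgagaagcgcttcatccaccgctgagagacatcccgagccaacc

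NF-kappaB genes were higher alongside. Of 27 genes of lymphotoxin receptor and NF-kappaB signalling, 16 were higher and none lower, with a median log2 fold change of 1.32. Nfkbia, the inhibitor that NF-kappaB itself induces, was at 3757 ± 1222 against 961 ± 430.4 CPM (log2 fold change 2.31 ± 0.14, adjusted p = 2.65e-07). Tnfaip3, a deubiquitinase that ends the signal, was at 513 ± 257 against 70.4 ± 30.3 CPM (log2 fold change 3.19 ± 0.27), Nfkbiz at 968 ± 233 against 239.6 ± 102.5 CPM and Bcl3 at 62.4 ± 11.0 against 5.98 ± 2.70 CPM. Relb, the subunit of the branch that lymphotoxin drives, was at 262 ± 86.2 against 68.9 ± 27.9 CPM (log2 fold change 2.18 ± 0.27). The lymphotoxin receptor gene Ltbr was at 67.8 ± 29.7 against 58.2 ± 16.8 CPM and was not called (adjusted p = 0.47), and no ligand or receptor of the lymphotoxin and TNF system passed among 5 tested. The NF-kappaB motif, GGGA, any 1 base and TTTCC on either strand, was found in 10.3% of the 29 windows of this list, beside 0.411% of all windows, 0.917% of those of genes called higher and 0.235% of those of genes called lower. Madcam1, shown as the marker of mucosal HEVs, held a match 70 bases before the gene start (GRCm38.p6, chr10:79664309-79664608, plus strand).
Madcam1: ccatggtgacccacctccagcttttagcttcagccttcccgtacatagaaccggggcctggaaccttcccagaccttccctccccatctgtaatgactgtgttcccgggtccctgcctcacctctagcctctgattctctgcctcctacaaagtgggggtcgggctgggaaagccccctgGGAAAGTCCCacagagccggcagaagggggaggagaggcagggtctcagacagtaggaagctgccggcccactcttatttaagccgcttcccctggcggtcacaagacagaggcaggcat

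Chemokine genes were called in both directions. Of 7 lymphoid chemokines tested 4 were lower in HEV and none higher. Cxcl13, which draws B cells into follicles, was at 0.0633, 0.0583, 0.0682 and 0 CPM in HEV, 3 reads in all, and from 114 to 491 CPM, with a median of 236, in FRC (adjusted p = 2.94e-08). Cxcl12, a chemokine for lymphocytes and plasma cells, was at 58.0, 77.9, 33.5 and 57.9 CPM in HEV and from 1533 to 4439.9 CPM, with a median of 2502, in FRC (log2 fold change -5.42 ± 0.28, adjusted p = 1.04e-07). Both were lower in every HEV library than in any FRC library. Ccl21a, the T-zone chemokine, was at 2.93 ± 1.73 against 1.65 ± 1.30 CPM and was not called (adjusted p = 0.72). Of 12 inflammatory chemokines 3 were higher and 5 lower. The 3 higher genes, Cxcl9, Cxcl10 and Cxcl11, encode the ligands of CXCR3 on activated T cells. Cxcl11 was at 141, 96.3, 90.7 and 46.9 CPM in HEV and from 0 to 0.138 CPM, with a median of 0.0554, in FRC, where the 7 libraries held 7 reads in all (log2 fold change 10.57 ± 0.70, adjusted p = 6.78e-07). Cxcl10 was at 1506 ± 527 against 293 ± 80.6 CPM (log2 fold change 2.45 ± 0.27) and Cxcl9 at 164 ± 48.1 against 36.5 ± 34.4 CPM (log2 fold change 2.34 ± 0.51). The 5 lower genes were the monocyte and eosinophil attractants Ccl2, Ccl7, Ccl8 and Ccl11 and the neutrophil attractant Cxcl5. Ccl2 was at 18.3 ± 16.7 against 364 ± 63.4 CPM and Ccl11 at 3.55 ± 6.34 against 961 ± 365 CPM (log2 fold changes -4.46 ± 0.46 and -9.47 ± 1.18). Cxcl5 had no read in the 4 HEV libraries and 2727 in FRC, at least 508-fold lower against a floor of 3 counts over the group. Cxcl1, a neutrophil attractant of the same family, was at 843 ± 196 against 738 ± 132 CPM and was not called (adjusted p = 0.31). Cxcl9 was no longer called without HEV 8 (adjusted p = 0.058).

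Survival and growth factors for leukocytes were likewise split, with 5 higher and 9 lower of 18 tested. Il15, the cytokine of natural killer and memory T cells, was higher in HEV at 181 ± 28.3 against 47.5 ± 16.2 CPM (log2 fold change 2.03 ± 0.28, adjusted p = 0.00021). Csf3, the granulocyte factor, was at 68.2 ± 31.0 against 3.45 ± 2.98 CPM, Tnfsf15 at 105 ± 44.4 against 16.7 ± 15.8 CPM and Kitl, stem cell factor, at 337 ± 81.4 against 177 ± 90.5 CPM. Cd274, the checkpoint ligand PD-L1, was the last of the 5, at 71.1 ± 22.6 against 11.4 ± 6.83 CPM (log2 fold change 3.15 ± 0.95, adjusted p = 0.030). On the FRC side, Tnfsf13b, the B cell survival factor BAFF, was at 0.205 ± 0.409 against 117 ± 19.6 CPM (adjusted p = 2.78e-05). Il33, an alarmin, was at 24.2 ± 3.98 against 363 ± 72.2 CPM (log2 fold change -3.80 ± 0.24), and Il7, the T cell survival factor, at 4.96 ± 8.17 against 65.1 ± 34.7 CPM (log2 fold change -4.77 ± 1.37, adjusted p = 0.025). Tnfsf11, RANKL, the factor that induces M cells over the patch, had no read in HEV and 3399 in FRC, at least 633-fold lower. Among 14 markers of marginal reticular and follicular dendritic cells 3 were higher and 5 lower, and Cr2 and Fcgr2b, which mark follicular dendritic cells, were at 6.27 ± 9.66 against 12.9 ± 12.5 CPM and 0.268 ± 0.497 against 3.57 ± 5.77 CPM and were not called. Cd274 was no longer called without HEV 9, FRC 13, HEV 17, FRC 20, FRC 21 or HEV 24 (adjusted p of up to 0.17). Il7 was no longer called without HEV 9 or HEV 24 (adjusted p of up to 0.091). Tnfsf15 was no longer called without HEV 9 (adjusted p = 0.055).

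All 21 pan-fibroblast genes tested were lower in HEV (median log2 fold change -8.25), and in every one all 4 HEV libraries lay below all 7 FRC libraries. The 22nd, Thy1, did not pass the filter, with 0.879 ± 1.49 against 0.241 ± 0.561 CPM. Members near 0 in HEV passed the filter through the FRC libraries, and the list was chosen with earlier results known. The full count is thus a description and not independent support. Serpinf1, an inhibitor of vessel growth, was at 0.0493 ± 0.0658 against 116 ± 27.8 CPM (adjusted p = 3.45e-07), Mmp2, gelatinase A, at 15.2 ± 7.23 against 1477 ± 149.6 CPM (log2 fold change -6.75 ± 0.37), and Gsn, gelsolin, at 53.1 ± 50.3 against 9429 ± 1867 CPM (log2 fold change -7.54 ± 0.46). Leaving out HEV library 9 moved the median of the list to -10.18 with 20 genes called, and leaving out HEV library 8 moved it to -7.53 with 20 called.

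Transcription factors of the mesenchyme and of gut position gave 17 lower and 3 higher of 27 tested (median -5.89). Foxf2, a forkhead factor of gut mesenchyme, had 1 read in the 4 HEV libraries and ranged from 79.8 to 196 CPM, with a median of 135, in FRC (adjusted p = 3.90e-08). Gli1, a Hedgehog target, was at 0.116 ± 0.0695 against 33.6 ± 18.1 CPM (log2 fold change -8.33 ± 0.69), and Tcf21, a fibroblast factor, at 3.40 ± 4.44 against 1275 ± 263 CPM (log2 fold change -9.09 ± 1.25). Foxl1, the factor of telocytes, had no read in HEV and 3404 in FRC, at least 634-fold lower. The 3 higher genes were Meox1, Ebf1 and Ebf3. Meox1, a homeobox factor, was at 209, 210.2, 242 and 218 CPM in HEV and from 7.69 to 17.2 CPM, with a median of 12.3, in FRC (log2 fold change 4.30 ± 0.27, adjusted p = 5.04e-07). Ebf1 was at 133 ± 66.7 against 17.5 ± 12.9 CPM (log2 fold change 3.44 ± 0.40) and Ebf3 at 21.1 ± 8.44 against 0.124 ± 0.149 CPM (log2 fold change 7.31 ± 0.94). Ebf1 is also a B cell factor, and Pax5, which marks that lineage, was at 2.51 ± 4.58 against 0 ± 0 CPM.

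Nkx2-3, the homeobox factor that Madcam1 requires in gut-associated lymphoid tissue, was present in both groups. It stood at 3033, 2376, 2159 and 2334 CPM in HEV and ranged from 1931 to 4703 CPM, with a median of 3631, in FRC, with a log2 fold change of -0.33 ± 0.24 and an adjusted p of 0.36. The ranges overlapped, while Madcam1 differed by 6.92 ± 0.55 on the log2 scale between the same libraries. The log2 fold change of Nkx2-3 differed in sign between separate fits of the library blocks, and a dependence on the block was not tested. The log2 fold change was 0.46 ± 0.15 within libraries 1 to 9 (adjusted p = 0.12) and -0.82 ± 0.16 within libraries 10 to 24 (adjusted p = 0.0093). Without HEV library 8 it was -0.80 ± 0.14 (adjusted p = 0.0022). That library was the only HEV library of its pool, so FRC libraries 4, 5 and 6 did not enter this fold change either.

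Of 22 HOX genes tested, which record position along the body axis, 6 were lower, 2 higher and 14 not called in HEV, and 5 of the 6 lower genes, Hoxc4, Hoxc5, Hoxc6, Hoxc8 and Hoxc9, lie in the HoxC cluster, the sixth being Hoxb3. Hoxc8 had 1 read in HEV and ranged from 7.49 to 75.9 CPM, with a median of 45.5, in FRC (adjusted p = 5.69e-06), and Hoxc4 was at 0.903 ± 1.81 against 63.4 ± 10.7 CPM (log2 fold change -7.36 ± 1.45). Hoxb9 ran the other way, at 50.3, 39.4, 19.3 and 18.6 CPM in HEV and from 0 to 0.201 CPM, with a median of 0, in FRC, with 4 reads in the 7 FRC libraries together (log2 fold change 9.60 ± 1.16, adjusted p = 9.02e-05). Hoxb7 was also higher, at 87.8 ± 54.5 against 27.4 ± 19.8 CPM (log2 fold change 1.71 ± 0.46). Hoxa5 and Hoxa7 were at 36.1 ± 19.4 against 35.5 ± 24.9 CPM and 36.7 ± 13.2 against 39.4 ± 23.9 CPM, and no HoxA gene passed. Neighbouring HOX genes overlap, and the counting is not stated to use strand, so single members of a cluster are uncertain. Hoxb3 was no longer called without HEV 8, HEV 9, FRC 12, FRC 13, FRC 21 or HEV 24 (adjusted p of up to 0.10). Hoxb7 was no longer called without HEV 8 or HEV 17 (adjusted p of up to 0.18).

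Most matrix genes were lower in HEV. Of 27 collagen genes tested 21 were lower in HEV and none higher (median -7.81), of 18 proteoglycans 15 were lower and 1 higher, of 27 elastic fibre and matricellular genes 23 were lower and 1 higher, and of 18 crosslinking and processing enzymes 14 were lower and 1 higher. Col3a1, a fibrillar collagen of reticular fibres, was at 17.3, 363, 10.9 and 5.07 CPM in HEV and from 8817 to 19472 CPM, with a median of 9789, in FRC (log2 fold change -8.38 ± 1.27, adjusted p = 0.00096). HEV library 9 alone stood above the other 3 HEV libraries, which also had the lower sums of pan-fibroblast genes. The basement membrane collagens Col4a1 and Col4a2, made by both vessels and fibroblasts, differed least among the 21, at 211 ± 107 against 454 ± 51.1 CPM and 218 ± 90.9 against 419 ± 63.8 CPM (log2 fold changes -1.07 ± 0.29 and -0.91 ± 0.25). Col15a1, a collagen of vascular basement membrane, was at 95.7 ± 12.1 against 58.3 ± 27.5 CPM and was not called (adjusted p = 0.073). Ogn, osteoglycin, was at 0.0927 ± 0.0753 against 546 ± 192 CPM (log2 fold change -12.18 ± 0.49) and Fn1, fibronectin, at 1.41 ± 1.16 against 889 ± 267 CPM (log2 fold change -9.82 ± 0.50). Loxl1, which crosslinks elastin, was at 0.0766 ± 0.0725 against 160.4 ± 43.3 CPM (adjusted p = 7.86e-08). Col4a1 was no longer called without HEV 24 (adjusted p = 0.052). Col4a2 was no longer called without HEV 8, HEV 17 or HEV 24 (adjusted p of up to 0.073).

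Some matrix genes were higher in HEV. Srgn, serglycin, the proteoglycan of secretory granules, was the proteoglycan that was higher, at 710.1 ± 43.6 against 29.4 ± 11.0 CPM (log2 fold change 4.66 ± 0.29, adjusted p = 4.19e-07). Thbs1, thrombospondin 1, was the matricellular gene that was higher, at 531 ± 118 against 289 ± 96.0 CPM (log2 fold change 0.88 ± 0.19). Tll1, a procollagen protease of the BMP1 family, was at 65.7 ± 18.3 against 1.41 ± 2.11 CPM (log2 fold change 6.66 ± 1.08), while Bmp1 itself was lower, at 27.4 ± 19.3 against 213 ± 16.9 CPM (log2 fold change -3.10 ± 0.48). Of 20 laminin and basement membrane genes 12 were lower and 1 higher. The higher gene was Lama5, the α5 chain of endothelial laminins, at 142 ± 42.4 against 55.3 ± 23.9 CPM (log2 fold change 1.29 ± 0.25, adjusted p = 0.0027). Lama2, Lamb1 and Lamc1, the chains of a muscle and fibroblast laminin, were lower, and Lamb1 was at 80.5 ± 22.6 against 586 ± 103 CPM. Of 26 proteases and inhibitors 15 were lower and 7 higher. Mmp10 and Mmp3, stromelysins, were at 0.184 ± 0.160 against 839.8 ± 131 CPM and 0.10 ± 0.0672 against 340.2 ± 107 CPM. Adamdec1, a metalloprotease of gut fibroblasts, was at 2.34, 46.6, 9.82 and 47.1 CPM in HEV and from 6536 to 15304 CPM, with a median of 11139, in FRC (log2 fold change -8.58 ± 1.01). Timp4 was the inhibitor with the largest difference on the HEV side, at 50.1 ± 20.2 against 0.261 ± 0.663 CPM (log2 fold change 9.61 ± 1.64), and Adamts9 and Adam15 were also higher, at 136 ± 31.0 against 22.7 ± 6.65 CPM and 304 ± 145 against 53.3 ± 29.5 CPM.

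Integrins matched no single direction, with 5 higher and 8 lower of 19 tested. Itga6, Itgb4 and Itga3, subunits of laminin receptors, were higher in HEV, at 108 ± 31.3 against 5.81 ± 5.58 CPM, 29.4 ± 10.0 against 4.77 ± 4.56 CPM and 50.5 ± 13.9 against 5.56 ± 7.77 CPM. Itga11, Itga8 and Itgav, subunits of receptors for collagen and for matrix proteins with an RGD site, were lower, at 0.0660 ± 0.0559 against 88.6 ± 18.1 CPM, 0.136 ± 0.235 against 58.9 ± 21.7 CPM and 19.4 ± 8.57 against 90.1 ± 23.8 CPM. Of 22 junction genes 11 were higher and 3 lower. Cldn5, the tight junction claudin of endothelium, was at 2202 ± 759.8 against 11.7 ± 14.1 CPM (log2 fold change 7.96 ± 1.27, adjusted p = 0.0013), and Cdh11, the cadherin of fibroblasts, was lower at 0.307 ± 0.286 against 170.0 ± 60.9 CPM (log2 fold change -9.23 ± 0.76). Itga3 was no longer called without HEV 8 (adjusted p = 0.10). Itgb4 was no longer called without HEV 8 (adjusted p = 0.16).

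Of 22 complement genes tested 12 were lower in HEV and 1 higher (median -3.22). The components of the classical pathway were lower together. C1s1 was at 239 ± 23.3 against 1701 ± 317 CPM and C1ra at 69.8 ± 21.2 against 405 ± 35.3 CPM (log2 fold changes -2.81 ± 0.19 and -2.44 ± 0.20), C4b at 0.314 ± 0.219 against 511 ± 127 CPM, C2 at 5.85 ± 7.65 against 66.2 ± 25.3 CPM, and the inhibitor Serping1 at 105 ± 40.7 against 2051 ± 907 CPM. C4a and C4b are near-identical copies, so their separate values are uncertain. The gene that was higher was Cfb, factor B of the alternative pathway, at 665 ± 120.5 against 154 ± 59.4 CPM (log2 fold change 2.30 ± 0.25, adjusted p = 3.55e-05). C3, on which both pathways act, was at 0.696, 0.699, 0.750 and 0.556 CPM in HEV, 42 reads in all, and from 1299 to 2917 CPM, with a median of 2114, in FRC. Thus HEV libraries held the message of factor B and almost none of C3, and the groups did not overlap for either.

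Coagulation genes gave 3 higher and 7 lower of 16 tested. F3, tissue factor, which starts clotting, had 1 read in HEV and was at 212 ± 58.9 CPM in FRC (adjusted p = 3.58e-08). Entpd1 and Procr, which break down extracellular ATP and bind protein C at the vessel wall, were higher in HEV, at 428 ± 182 against 48.5 ± 25.6 CPM and 680.3 ± 192 against 191 ± 45.3 CPM, as was Vwf, von Willebrand factor, at 589.7 ± 288 against 12.2 ± 12.4 CPM. Ptgis, prostacyclin synthase, was lower, at 0.341 ± 0.362 against 183 ± 30.4 CPM (log2 fold change -9.41 ± 0.73), and so was Thbd, thrombomodulin, at 321 ± 52.4 against 529 ± 144 CPM (log2 fold change -0.69 ± 0.22, adjusted p = 0.037). Of 21 laminar shear response genes 11 were higher and 3 lower, with Slco2a1, the prostaglandin transporter, at 504.5 ± 81.8 against 26.8 ± 6.99 CPM, Cav1 at 1169.5 ± 242 against 221 ± 51.8 CPM and Nos3, the endothelial nitric oxide synthase, at 127 ± 41.2 against 1.20 ± 1.96 CPM. Pkd1 and Pkd2, the polycystins, were lower, at 16.9 ± 12.4 against 93.8 ± 27.1 CPM and 26.1 ± 9.15 against 123 ± 54.0 CPM. Thbd was no longer called without FRC 4, FRC 5, FRC 6, HEV 8, FRC 13, HEV 17, FRC 20 or HEV 24 (adjusted p of up to 0.13).

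Enzymes of oxysterol and retinoid metabolism were divided between the cell types step by step, with 5 higher and 7 lower of 18 tested. Oxysterols made by CH25H and CYP7B1 and inactivated by HSD3B7 guide B cells through the receptor EBI2. Ch25h, which carries out the first hydroxylation of cholesterol, was at 627, 489, 815 and 716 CPM in HEV and from 24.7 to 127 CPM, with a median of 85.8, in FRC (log2 fold change 3.13 ± 0.32, adjusted p = 2.64e-05). Cyp7b1, which carries out the next hydroxylation, was at 15.6, 5.94, 11.8 and 0.486 CPM in HEV and from 103 to 173 CPM, with a median of 137, in FRC (log2 fold change -3.88 ± 0.67, adjusted p = 0.0012). The groups did not overlap for either, so the first step was higher in HEV and the second in FRC. Hsd3b7 was higher in HEV at 744 ± 259 against 68.5 ± 24.3 CPM (log2 fold change 3.53 ± 0.29), and Cyp27a1, another cholesterol hydroxylase, at 236 ± 66.7 against 82.7 ± 27.5 CPM (log2 fold change 1.55 ± 0.31).

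Retinoic acid, which imprints gut homing on lymphocytes, is made from retinol by RDH10 and the ALDH1A enzymes and degraded by CYP26 enzymes. The 3 genes for ALDH1A enzymes were lower in HEV. Aldh1a2 was at 0, 0.0583, 0.273 and 0.139 CPM in HEV, 7 reads in all, and from 247 to 382 CPM, with a median of 336, in FRC (log2 fold change -11.37 ± 0.57, adjusted p = 7.86e-08). Aldh1a3 was at 1.09 ± 1.78 against 510.2 ± 104 CPM and Aldh1a1 at 10.8 ± 12.8 against 395 ± 137 CPM. Rdh10 and Rbp4, the retinol carrier, were lower too, at 48.9 ± 14.3 against 256 ± 63.8 CPM and 0.127 ± 0.0914 against 275 ± 60.6 CPM. The genes higher in HEV were Stra6, the receptor that takes up retinol, at 181 ± 66.2 against 17.9 ± 17.2 CPM (log2 fold change 3.76 ± 0.76), and Cyp26b1. The degrading enzyme Cyp26b1 was at 196, 315, 96.6 and 80.3 CPM in HEV and from 0.134 to 22.3 CPM, with a median of 2.58, in FRC, where library 6 was the highest (log2 fold change 6.20 ± 0.93, adjusted p = 0.00047). Rara, Rarb and Rarg, the retinoic acid receptors, were at 15.7 ± 1.56 against 9.69 ± 3.93 CPM, 22.4 ± 15.9 against 27.7 ± 9.83 CPM and 18.6 ± 13.3 against 8.75 ± 5.53 CPM, and none passed.

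**Figure D3:**
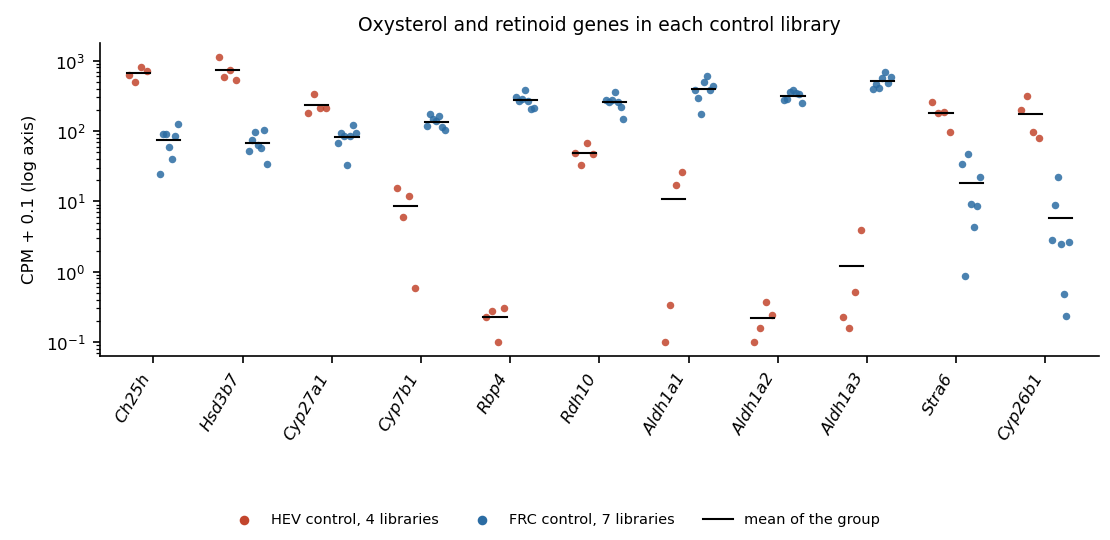
Level of 11 genes for oxysterol and retinoid metabolism in each control library, in CPM plus 0.1 on a log axis; each point is 1 library and each bar the group mean, with HEV in red and FRC in blue. Ch25h, Hsd3b7, Cyp27a1, Stra6 and Cyp26b1 are higher in HEV, and Cyp7b1, Rbp4, Rdh10 and the 3 Aldh1a genes are higher in FRC.

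Ligands and receptors were taken system by system from 23 systems. Of 58 ligands tested 10 were higher in HEV and 27 lower, and of 73 receptors 24 were higher and 27 lower. Several systems had a called ligand on one side and a called receptor on the other. Edn1, the vasoconstrictor endothelin 1, was at 102.2, 55.7, 37.8 and 37.3 CPM in HEV and from 0 to 0.805 CPM, with a median of 0.0588, in FRC (log2 fold change 8.61 ± 1.00, adjusted p = 6.60e-05). Its receptor gene Ednrb was at 22.2, 21.9, 3.89 and 22.4 CPM in HEV and from 1006 to 3639 CPM, with a median of 1540.4, in FRC (log2 fold change -6.55 ± 0.61), and Ednra was at 0.802 ± 1.56 against 51.0 ± 23.7 CPM. Neither group reached the other for Edn1 or Ednrb, and FRC library 20 held the Ednrb maximum. Pdgfb was higher in HEV, at 56.7 ± 13.9 against 1.15 ± 2.62 CPM (log2 fold change 7.59 ± 1.29), opposite both PDGF receptors, with Pdgfrb at 0.564 ± 0.912 against 85.4 ± 34.0 CPM. Angiopoietin 1, Angpt1, had no read in HEV and 2121 in FRC, at least 395-fold lower, opposite its receptor Tek at 349 ± 121 against 14.7 ± 16.2 CPM. Angpt2, the antagonist, was on the same side as the receptor, at 27.4 ± 19.8 against 1.42 ± 3.51 CPM. Adm, adrenomedullin, was lower, at 20.5 ± 8.61 against 112 ± 30.2 CPM, opposite its receptor pair Calcrl and Ramp2, with Calcrl at 433 ± 215 against 112 ± 36.8 CPM. Of 3 adrenomedullin receptor genes tested 2 were higher and 1 was lower, on the side of Adm. Slit3 was lower, at 0.422 ± 0.606 against 66.2 ± 28.7 CPM, opposite the endothelial receptor Robo4 at 229.8 ± 49.0 against 1.61 ± 2.89 CPM. Of 3 Slit receptor genes tested 1 was higher and 1 was lower, on the side of Slit3. Angpt2 was no longer called without HEV 8 (adjusted p = 0.11).

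Within the VEGF system Vegfa, Vegfd and Pgf were lower and Vegfc higher, with Vegfa at 2.42 ± 1.42 against 16.0 ± 8.77 CPM (adjusted p = 0.034) and Vegfc at 189 ± 47.1 against 82.3 ± 14.3 CPM. The receptors Kdr, Flt1, Flt4 and Nrp2 were higher, and Nrp1 was lower, at 297 ± 96.7 against 512 ± 79.9 CPM. Apelin kept to one side: Apln was at 25.6 ± 13.9 against 0.688 ± 1.79 CPM and its receptor gene Aplnr at 355 ± 126 against 27.0 ± 10.6 CPM, both higher. In the Notch system the ligands Dll4 and Jag2 and the receptor Notch1 were higher, with Jag2 at 22.2 ± 9.42 against 0.0690 ± 0.0606 CPM and Notch1 at 65.6 ± 14.5 against 14.0 ± 8.49 CPM, and Notch2 was lower at 2.85 ± 2.15 against 20.5 ± 12.1 CPM. Of the ephrin B receptors Ephb4 was higher, at 76.8 ± 37.1 against 15.1 ± 9.23 CPM, and Ephb2 and Ephb3 lower, with Ephb3 at 0.0450 ± 0.0563 against 48.6 ± 13.9 CPM. The netrin, GAS6, IGF and HGF systems had called ligands on the FRC side only, among them Ntn1 at 8.30 ± 12.9 against 178 ± 59.5 CPM, Igf1 at 13.4 ± 15.1 against 501 ± 119 CPM and Hgf at 0.118 ± 0.196 against 66.3 ± 24.1 CPM, and the receptor genes called in these systems, Neo1, Unc5b, Unc5c, Axl, Mertk and Igf1r, were lower in HEV too. Fgf7 and Fgf10 were lower, with Fgf10 at no read in HEV and 4892 in FRC, at least 911-fold lower, and so were Fgfr1, Fgfr2 and Fgfr4, whereas Fgfr3 was higher at 41.8 ± 26.0 against 5.99 ± 6.13 CPM. Apln was no longer called without HEV 8 or HEV 9 (adjusted p of up to 0.14). Fgfr3 was no longer called without FRC 5, HEV 8, HEV 9, HEV 17, FRC 21 or HEV 24 (adjusted p of up to 0.19). Mertk was no longer called without HEV 8, HEV 9, FRC 13, HEV 17 or FRC 21 (adjusted p of up to 0.11). Notch2 was no longer called without HEV 9, HEV 17, FRC 20, FRC 21 or HEV 24 (adjusted p of up to 0.088). Nrp1 was no longer called without HEV 8 (adjusted p = 0.069). Vegfa was no longer called without FRC 6, HEV 9, FRC 12, FRC 13, HEV 17, FRC 20, FRC 21 or HEV 24 (adjusted p of up to 0.097). Vegfd was no longer called without HEV 8 or HEV 9 (adjusted p of up to 0.065).

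Of 14 receptor genes tested for stem cell factor, CSF1 and the interleukin 1, 4, 6 and 13 families, 6 were higher in HEV and 3 lower. Kit, the stem cell factor receptor, was at 114, 98.2, 21.0 and 93.2 CPM in HEV and from 0.0588 to 2.02 CPM, with a median of 0.535, in FRC (log2 fold change 7.16 ± 0.83, adjusted p = 6.28e-05), and its ligand gene Kitl was higher in the same libraries. Mast cells and interstitial cells of Cajal also carry Kit, and of 5 tested markers of interstitial cells and mesothelium Kit alone was higher, while Ano1 was at 1.26 ± 2.52 against 5.08 ± 5.32 CPM. Il6st and Lifr, the shared and specific chains of the interleukin 6 family receptors, were higher, at 637 ± 176 against 163 ± 43.6 CPM and 1433 ± 787 against 425 ± 344 CPM, and Il6ra was lower at 10.3 ± 9.15 against 80.9 ± 44.9 CPM. Il4ra was at 189.6 ± 46.3 against 81.4 ± 26.7 CPM and Il2rg at 657 ± 123 against 11.9 ± 5.68 CPM (log2 fold changes 1.46 ± 0.23 and 6.02 ± 0.68), both higher. Of the interleukin 1 family, the ligands Il33, Il1b and Il1a were lower, and Il1rl1, the interleukin 33 receptor, was also lower, with 1 read in HEV and 12.2 ± 10.3 CPM in FRC. Ano1 was called, in the same direction, without HEV 17 (adjusted p = 0.011).

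**Figure D4:**
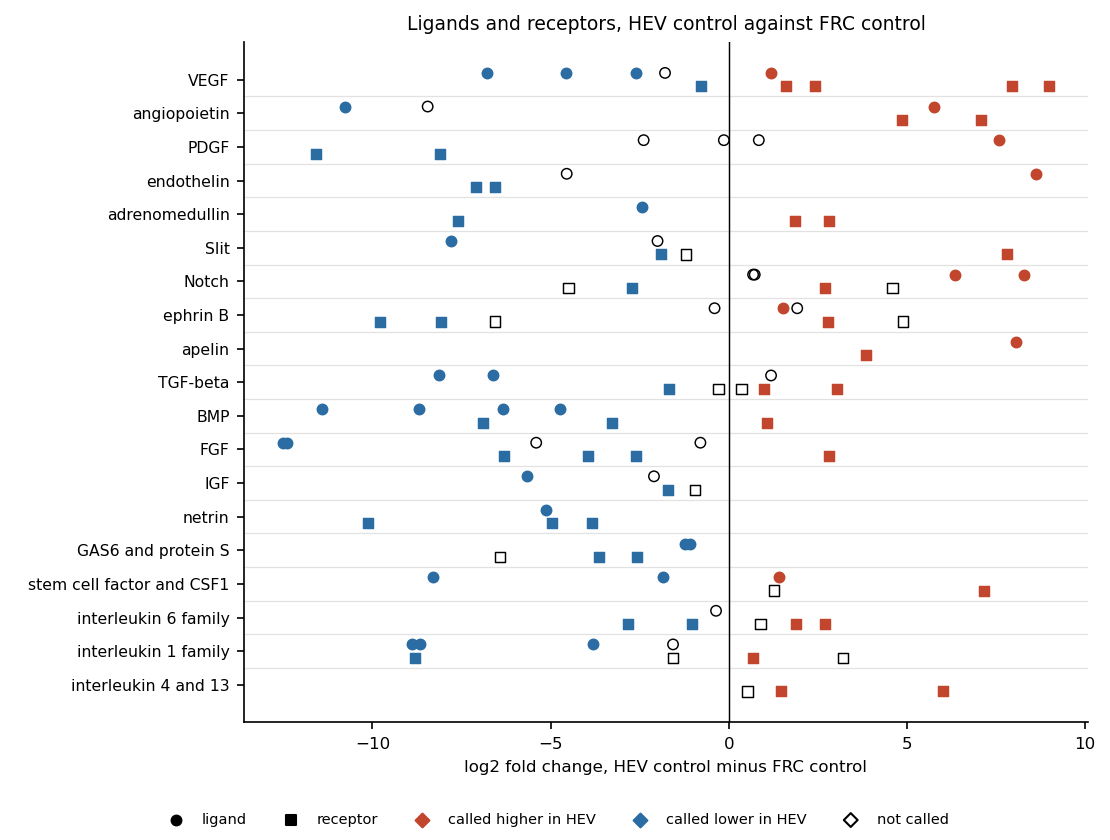
Log2 fold change (HEV minus FRC) of each tested ligand (circles) and receptor (squares) in 19 signalling systems; red was called higher in HEV, blue lower, and open symbols were not called. The endothelin and PDGF rows have called ligands and receptors on opposite sides of 0. In the adrenomedullin row the called receptors, and in the angiopoietin row the called ligands, lie on both sides.

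BMP and Wnt genes were on the FRC side almost without exception: of 29 tested 27 were lower in HEV and none higher. The median log2 fold change was -7.96, or -7.80 with the gene that had no HEV read set at its bound. Bmp4 was at 17.7, 55.7, 56.7 and 75.3 CPM in HEV and from 496 to 1848 CPM, with a median of 1285, in FRC (log2 fold change -4.75 ± 0.19, adjusted p = 1.74e-08). The HEV libraries were not devoid of Bmp4 but all lay below the FRC minimum. Bmp5 was at 0.0487 ± 0.0646 against 185 ± 72.4 CPM, and the antagonists Chrd and Grem1 at 0.0341 ± 0.0682 against 44.2 ± 11.8 CPM and 1.71 ± 3.21 against 333 ± 90.3 CPM. Rspo3, an R-spondin that amplifies Wnt signals in crypts, had 1 read in HEV and was at 57.4 ± 10.6 CPM in FRC (adjusted p = 4.12e-07). Wnt5a, a non-canonical ligand, was at 6.52 ± 4.28 against 274 ± 63.3 CPM (log2 fold change -5.41 ± 0.51), and the inhibitors Sfrp1 and Dkk3 were at 10.9 ± 2.69 against 1863 ± 518 CPM and 0.921 ± 1.53 against 366 ± 55.5 CPM. Ligands and inhibitors of both pathways were therefore lower in HEV in the same libraries. The 2 that did not pass included Lgr5, an R-spondin receptor, at 0.154 ± 0.155 against 5.20 ± 6.79 CPM (adjusted p = 0.086). Lgr5 was called, in the same direction, without FRC 20 (adjusted p = 0.040).

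Levels of different genes were compared per length, in the deposited normalised RPKM, as means ± SD over the libraries. Among genes called higher in HEV the highest were Glycam1 at 6023 ± 2561, B2m at 5330.4 ± 565, Madcam1 at 4544 ± 1088, Ifitm3 at 4541 ± 881 and Lrg1 at 4427 ± 1187. Neighbours in this order lay within their SDs of each other. B2m, the light chain of MHC class I, and Ifitm3, an antiviral membrane protein, were abundant in FRC too, at 2870.1 ± 700.8 and 2528 ± 923, whereas Glycam1, Madcam1 and Lrg1 were at 38.9 ± 71.8, 37.3 ± 21.7 and 14.0 ± 25.1. Among genes called lower the highest in FRC were Mgp at 5249.7 ± 2333, Adamdec1 at 3466 ± 1142, Fth1, the ferritin heavy chain, at 3387 ± 856, Dcn, decorin, at 2688 ± 283 and Gsn at 2356 ± 519.5. Fth1 was the member of that group that HEV also held in quantity, at 1590.5 ± 163, and Mgp, Adamdec1, Dcn and Gsn were at 43.5 ± 39.9, 8.46 ± 7.53, 6.94 ± 11.1 and 13.4 ± 12.6.

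Of 30 cytosolic ribosomal protein genes 3 were higher, among them Rplp0 and Rps3, and none lower (median 0.19). Of the 24 oxidative phosphorylation genes listed 1 was higher, Uqcrc2, and none lower (median -0.09). The cytochrome b gene CYTB, of the same pathway but outside that list, was lower and did not overlap. It was at 1962 ± 708 against 3421 ± 522 CPM (log2 fold change -0.93 ± 0.16, adjusted p = 0.0010). Of 18 glycolysis genes 7 were higher and none lower (median 0.92). Slc2a1, the glucose transporter GLUT1, was at 122 ± 30.3 against 16.9 ± 11.5 CPM (log2 fold change 3.00 ± 0.58, adjusted p = 0.0025), Pfkl, phosphofructokinase, at 196 ± 35.7 against 46.9 ± 28.1 CPM and Pkm, pyruvate kinase, at 504.02 ± 45.4 against 241 ± 32.3 CPM. Genes with many near-identical copies are undercounted where reads must map uniquely. Of 26 fatty acid handling genes 5 were higher and 3 lower, with lipoprotein lipase, Lpl, lower at 0.329 ± 0.483 against 403 ± 89.8 CPM (log2 fold change -10.41 ± 0.89) and Gpihbp1, its anchor on endothelium, higher at 6.32 ± 5.83 against 0.301 ± 0.796 CPM (adjusted p = 0.028). Gpihbp1 was no longer called without FRC 4, FRC 5, FRC 6, HEV 8, FRC 20 or FRC 21 (adjusted p of up to 0.32). Rps3 was no longer called without HEV 8 (adjusted p = 0.065).

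Immediate early genes, which tissue dissociation can induce, moved in both directions. Of 24 tested 9 were higher, 3 lower and 12 not called (median 0.66). Ier3 was at 3996 ± 1199 against 585 ± 289 CPM (log2 fold change 2.68 ± 0.16, adjusted p = 3.65e-07) and Atf3 at 1448 ± 263 against 446 ± 125 CPM (log2 fold change 1.82 ± 0.22), whereas Fosb was lower at 282 ± 71.5 against 561 ± 69.0 CPM and Fos was at 2155 ± 528 against 2416 ± 351 CPM and was not called (adjusted p = 0.64). Hspa1a, a heat shock gene with a near-identical copy, was lower at 510.3 ± 65.4 against 1303 ± 107 CPM. Ier3, Atf3 and Zfp36 are also NF-kappaB or stress targets, so the part of dissociation in the NF-kappaB values was not tested.

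Some genes known from the T cell lineage were higher in HEV. Cd247, the zeta chain of the T cell receptor complex, was at 86.4, 41.3, 122 and 128 CPM in HEV and from 0.201 to 17.3 CPM, with a median of 0.997, in FRC (log2 fold change 5.88 ± 1.29, adjusted p = 0.0055). Lck, the kinase that phosphorylates it, was at 38.4 ± 17.5 against 2.77 ± 5.18 CPM, and Coro1a, a leukocyte actin-binding protein, at 51.0 ± 9.28 against 3.13 ± 6.66 CPM (adjusted p = 0.049). Of 11 T and NK markers in the files 8 did not pass the filter, among them Cd3e at 0.0174 ± 0.0347 against 0.0176 ± 0.0465 CPM and Cd3g at 4.20 ± 5.24 against 0.659 ± 1.74 CPM. The summed level of the list was 109 to 184 CPM in HEV and 1.29 to 20.0 CPM in FRC, and most of the HEV sum was Cd247 and Lck. Ptprc, CD45, the surface marker of all leukocytes, was at 4.60 ± 7.55 against 1.27 ± 1.93 CPM and was not called (adjusted p = 0.80), and Cd4 was at 0.147 ± 0.184 against 0.578 ± 0.536 CPM. Gimap6, a GTPase of lymphocytes and endothelium, was at 1362 ± 482 against 8.01 ± 4.17 CPM (log2 fold change 7.28 ± 0.43). Coro1a was no longer called without FRC 5, FRC 6, HEV 8, FRC 13, HEV 17, FRC 20, FRC 21 or HEV 24 (adjusted p of up to 0.13). Lck was no longer called without HEV 8 (adjusted p = 0.088).

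Smooth muscle and pericyte markers were on the FRC side, with 14 lower and 1 higher of 17 tested. Acta2, smooth muscle actin, was at 106 ± 82.6 against 1800.4 ± 306 CPM, Des, desmin, at 23.5 ± 27.1 against 380.1 ± 73.1 CPM and Myh11, smooth muscle myosin, at 23.8 ± 25.9 against 467 ± 143 CPM. Rgs5 and Cspg4, markers of pericytes, were at 17.6 ± 8.24 against 797 ± 182 CPM and 0.226 ± 0.109 against 66.5 ± 14.8 CPM. Some of these genes are also made by FRCs. Their summed level was 4923 to 6296 CPM in the 7 FRC libraries and 296 to 873 CPM in the 4 HEV libraries, and the part of smooth muscle cells or pericytes in the matrix and signalling values of the FRC libraries was not tested. Acta2 was no longer called without HEV 17 (adjusted p = 0.050).

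**Figure D5:**
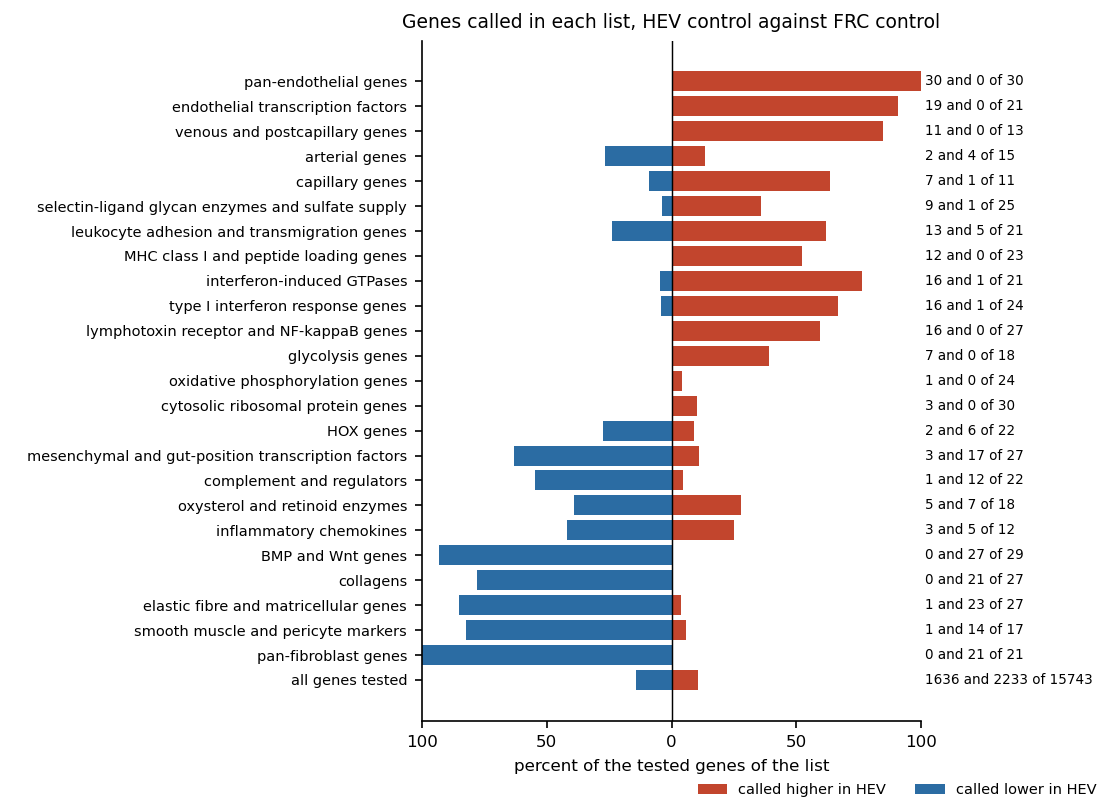
Percent of the tested genes of each list called higher (red, to the right) or lower (blue, to the left) in HEV than in FRC, with the counts at the right edge and all genes tested in the bottom row. The pan-endothelial and pan-fibroblast lists reach 100 percent in opposite directions, and the ribosomal and oxidative phosphorylation lists lie near 0.

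The comparison was repeated in the PEG libraries, which share no library with the controls. Of the 1636 genes higher in control HEV, 1604 were tested there and 1220 (74.6% of the 1636) were called higher. Of the 2233 lower, 2015 were tested and 1467 (65.7% of the 2233) were called lower. In each set 1 gene was called the other way. Genes not tested there count as not called in both shares, and more of them were in the lower set. In the PEG libraries 12.5% of 14991 genes tested were higher and 14.4% lower. Within the controls, libraries 1 to 9 alone (2 HEV and 3 FRC) gave 652 higher and 825 lower genes, and libraries 10 to 24 alone (2 HEV and 4 FRC) gave 1291 and 1734. Of the 1636 higher genes 615 and 1024 were called higher in these blocks, of the 2233 lower genes 757 and 1493 were called lower, and none was called the other way in either block.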

How the data were processed

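RNA sequencing of sorted HEV and FRC cells was used as deposited, 1 table per library. The counts are whole reads per gene model, deposited by the authors after low-quality, ribosomal and adapter reads were removed and uniquely mapping reads kept with HTSeqGenie and GSNAP, per the labels' protocols. The submitters' processing notes name build mm9 while the protocol text names a human build. Versions and the annotation are not given in the sources used here. The deposited RPKM values were scaled by the authors with their size factor, per the file headers, and served only to compare levels between genes.

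Counts were tested with edgeR 4.0.16 (R 4.3.3): filterByExpr at a minimum count of 10, TMM, robust quasi-likelihood F test, two-sided, HEV against FRC with sequencing pool as covariate, Benjamini-Hochberg adjustment over 15743 genes. Every adjusted p comes from this fit unless another setting is named beside it. The standard error of a log2 fold change was its absolute value divided by the square root of F. Both are least certain where a group held few reads. The pool was inferred from recurring index pairs. CPM use each library's total. Of 36528 gene models per table, 85.0% had a symbol, and these held 97.3% of reads. Alternatives used DESeq2 1.42.0 and limma 3.58.1, other scalings, filters, covariates and subsets of libraries. The edgeR step was tested on simulated data.

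The 49 gene lists and 23 ligand-receptor systems hold 1030 genes found in the tables, and the lists and members were chosen with earlier results of these data known. Genes were named by a rule: the 5 markers, the 12 genes of smallest p in each direction with at least 5 CPM, the 10 highest per length, up to 4 of smallest p per list and direction, and the ligand-receptor genes. Other genes were named after their values were seen, for their function or because they did not pass. Libraries of one cell type came from different mice as far as the labels state, and p-values measure only the spread between these libraries. Reads carry no molecular identifiers, so amplification duplicates count as reads. Whether counting used strand is not given in the sources used here. Values of some single genes are not reported here.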

Additional observations from a re-analysis of the deposited data

Results flagged for a closer look

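For 34 genes, the summed levels of 8 marker lists and the reads in genes, leaving out groups with no library above 3 reads of the gene, the highest or lowest library of each group was set against the gap to its nearest neighbour, as a share of the group's range; a gap above Dixon's 95% critical value was taken as standing apart. Of 80 groups tested 15 had a library that stood apart. The critical value assumes independent and normally distributed values. CPM near 0 do not meet this, and the groups share libraries and genes, so the count cannot be set against a rate expected by chance. FRC library 20 accounted for 8 of them. It was high for Glycam1 (177.4 CPM, next highest 23.2), Pecam1 (9.702, next 2.21), Lrg1 (124.8, next 25.5), Sox17 (3.881, next 0.246) and Fut7 (7.895, next 0.388), which are HEV genes. It was also high for Irf1 (849.9 CPM, next 604), Ednrb (3639, next 1779) and the summed intestinal epithelium markers (2984, next 956).

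HEV library 9 was high for Col3a1 (362.9 CPM, next 17.3), Lpar1 (5.827, next 0.6253) and the summed pan-fibroblast genes (832, next 120). HEV library 24 was high for the summed intestinal epithelium markers (8750 CPM, next 1014). Among single genes, Ednrb was low in HEV library 17 (3.887 CPM, next lowest 21.9), Cyp26b1 was high in FRC library 6 (22.31 CPM, next 8.82) and Cd247 was high in FRC library 5 (17.29 CPM, next 5.21).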

How the results depend on the processing

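The counts of genes higher and lower moved by over 1.5 times in subsets of libraries: libraries 1 to 9 gave 652 and 825, those with the i5 index N503 gave 490 and 772, and those with N504 gave 652 and 975, each from 5 or 6 libraries with no covariate. With each library left out in turn, 1280 to 1621 genes were higher and 1790 to 2170 lower. Other scalings, filters, covariates and tests on the same 11 libraries gave 1438 to 2090 higher and 1969 to 3242 lower, and libraries 10 to 24 gave 1291 and 1734. All 24 libraries in 1 model gave 2135 and 2463, and the PEG libraries, which share none with the controls, 1868 and 2154. The DESeq2 Wald test called 1594 of the 1636 higher and 2187 of the 2233 lower genes the same way. With the library block (1 to 9 or 10 to 24) as covariate in place of the pool, 1515 and 2104 of them were. Of 255 called genes named in the text, 131 were called in every alternative that tested them. In the PEG libraries Hoxa7 (log2 fold change 0.92), Thbd (0.19) and Uqcrc2 (-0.27) had the opposite sign, and the cause was not tested. No paired analysis was possible because the HEV and FRC groups share no replicate number and the labels do not say which HEV and FRC libraries share a mouse. With 4 HEV libraries, a missed threshold does not show that values were alike.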
